A study of Mus musculus with 6 samples.

Results

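The genes described here are 10 markers and regulators of cartilage and bone differentiation, followed across 6 lines of primary mouse embryonic fibroblasts (pMEFs). They were chosen by name for their known roles, though with earlier results of these data known. They are the cartilage regulators Sox9, Sox5 and Sox6 and the cartilage matrix genes Acan, Comp and Matn4. The others are the bone regulators Runx2 and Sp7, and the bone matrix and mineralization genes Alpl and Ibsp. All 10 were among the 17512 genes of the count table. Of them 9 passed the filter on low counts and were among the 14773 genes tested, while Ibsp did not. RNA was sequenced from 3 HAT1 WT lines (36, 47 and 78) and 3 HAT1 KO lines (33, 41 and 72), all of C57bl6 background and all grown in DMEM with FBS. The WT lines carry the intact Hat1 gene, which encodes the enzyme that acetylates new histone H4, and the KO lines come from a knockout of the whole animal, not of a chosen cell type. Each line was derived from mid-gestation embryos with the internal organs removed, was sequenced once, and is counted as 1 replicate. Such cultures hold connective tissue cells from many sites of the embryonic body.

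Cartilage and bone cells arise from the same mesenchymal progenitors. SOX9 is the transcription factor that commits a progenitor to the cartilage lineage, and it works together with SOX5 and SOX6 to switch on matrix genes such as Acan and Col2a1. RUNX2 and, after it, SP7 (osterix) direct the bone lineage, whose cells make alkaline phosphatase (ALPL) and bone sialoprotein (IBSP) as they lay down mineral.

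Values are CPM, the counts of a gene relative to the size of its library, after scaling with TMM (trimmed mean of M-values). The libraries held between 67720628 and 98786746 counts. Hat1 was at 17.4 to 23.0 CPM in the WT lines and at 10.0 to 10.3 CPM in the KO lines, a log2 fold change of -0.99 (SE 0.12), with an edgeR quasi-likelihood adjusted p of 0.0376 (Benjamini-Hochberg). KO line 72 stood apart from the other lines: it was the highest or the lowest of the 6 for 51.5% of all tested genes. The labels place WT line 47 and KO lines 33 and 72 on lane 6, WT line 78 and KO line 41 on lane 7, and WT line 36 alone on lane 8. Y-linked transcripts were abundant only in WT lines 36 and 47 (13788 and 12841 summed counts, against 4 to 231 in the other 4 lines). Genotype, lane and Y-linked expression were therefore not balanced. The 9 fibroblast markers, led by Col1a1, were abundant in every line, with summed levels of 70200 to 75590 CPM in WT lines and 57050 to 88990 CPM in KO lines, the lowest being KO line 72.

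Both of the genes with the widest range between lines lie on chromosome 7, and the sequence before an annotated start of each is shown so that their letters can be set beside their levels. RefSeq promoter windows were found for 7 of the 10 genes (Sox5, Sox6, Acan, Matn4, Runx2, Alpl and Ibsp) on GRCm38.p6, and the 250 bases before each start were searched on both strands. The SOX core AACAAT (reverse complement ATTGTT) was present in 9.42% of 32851 windows of that length, the RUNX core ACCACA (reverse complement TGTGGT) in 14.0% and the TATA letters TATAAA (reverse complement TTTATA) in 12.4%. Matches to each motif were counted separately, whether or not they overlapped. The Acan window, chr7:79052976-79053225 on the plus strand, held none of these letters and had a GC content of 74.4%, against a median of 52.4% over all windows. Of 6 windows for Sox6 the one with the most matches is printed, whereas the shares above are per single window. This window, at chr7:115824711-115824960 on the minus strand, held 2 SOX cores and 1 RUNX core, shown in capitals. It lies inside the gene, since the start it precedes is an internal one, and the Acan window lies outside. No exon of the annotation overlaps either window. Each sequence is printed 5′ to 3′.
Acan: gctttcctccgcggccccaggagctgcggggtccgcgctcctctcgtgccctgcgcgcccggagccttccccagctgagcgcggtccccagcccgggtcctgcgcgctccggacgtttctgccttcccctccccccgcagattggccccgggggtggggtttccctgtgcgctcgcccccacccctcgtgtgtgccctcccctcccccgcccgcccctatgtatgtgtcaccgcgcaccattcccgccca
Sox6: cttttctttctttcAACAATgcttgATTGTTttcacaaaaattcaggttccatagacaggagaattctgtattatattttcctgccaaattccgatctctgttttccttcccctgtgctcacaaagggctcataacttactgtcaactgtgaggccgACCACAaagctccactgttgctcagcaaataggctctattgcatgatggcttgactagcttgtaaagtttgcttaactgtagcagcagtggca
The Runx2 window and 1 other Sox6 window each held 1 RUNX core, and no other window of the 7 genes held a SOX core. A match in letters is a description of the sequence and not a bound site.

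Matn4 was the only one of the 10 genes whose KO lines all lay above its WT lines, and for the others the lines of the genotypes overlapped. The question behind the comparison was which transcripts differ once HAT1 is lost, and for these genes 0 of 9 were under an adjusted p-value of 0.05 in edgeR, against a background of 0.528% of all tested genes. With DESeq2 it was 1 of 9 against 5.9% of all genes, and with voom 0 of 9 against 1.81%. DESeq2 gave Comp no adjusted p-value, and genes without one counted as not called. At unadjusted p < 0.05 the count was 1 of 9, namely Matn4, against 14.6% of all tested genes (5.88% higher and 8.77% lower in HAT1 KO). Fitted values were higher in HAT1 KO for 8 genes and lower for Sox5, with a median log2 fold change of 0.46 beside 0.0085 over all tested genes. With voom the sign was the opposite for Sox5, Sox6, Acan, Comp and Alpl. Since 1 KO line differed from the rest, the values are given line by line. In a culture of mixed cells, fewer cells of a type and less RNA per cell cannot be told apart.

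**Figure D1:**
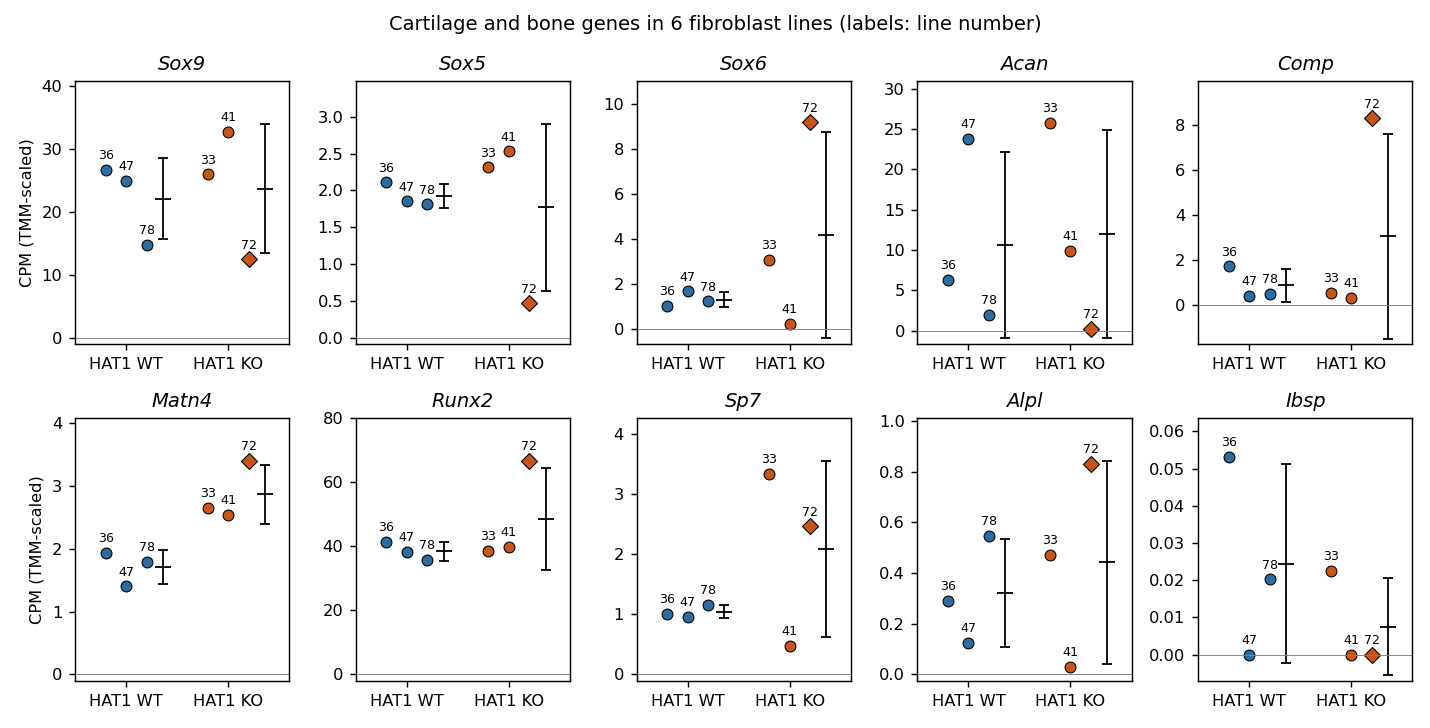
Level of each of the 10 genes in each line (y axis, TMM-scaled CPM, linear and with its own scale in each panel), with HAT1 WT lines in blue and HAT1 KO lines in orange and each point labelled by its line number. The black bar beside each group is the mean with SD (n = 3), the diamond is KO line 72, and Matn4 is the only gene in which all 3 KO lines lie above all 3 WT lines.

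Per kilobase of exon, which allows levels of different genes to be compared, Sox9 (5.34 ± 1.56 CPM per kb, SD, n = 3) and Runx2 (4.35 ± 0.327) were the most abundant of the 10 in HAT1 WT. Their ranges over the WT lines overlapped. Acan came next at 1.43 ± 1.54 CPM per kb, lay below Runx2 in every WT line, and overlapped the genes after it. Matn4 (0.331 ± 0.0534), Sp7 (0.307 ± 0.0315) and Comp (0.296 ± 0.247) followed and could not be ordered beyond their spread, and nor could Comp and Sox5 (0.134 ± 0.0113). Sox6 (0.0886 ± 0.0222) lay below Sox5 in every WT line, overlapped Alpl (0.0795 ± 0.0526), and Ibsp was the lowest. Both lineage regulators were thus at a middle level of the transcriptome, with 57.1% of tested genes below Sox9 and 52.5% below Runx2, while only 5.5% lay below Alpl on the same scale.

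Sox9, on the plus strand of chromosome 11 (112782224 to 112787760, GRCm38), was at 26.7, 24.9 and 14.7 CPM in WT lines 36, 47 and 78 and at 25.9, 32.6 and 12.4 CPM in KO lines 33, 41 and 72. WT line 78 and KO line 72 were low and the genotypes overlapped. The means were 22.1 ± 6.43 and 23.7 ± 10.3 CPM (SD, n = 3), a log2 fold change of 0.10 (SE 0.39, edgeR adjusted p = 0.928). It turned to -0.11 without WT line 78 and to -0.19 without KO line 41, and was 0.68 with Y-linked class in the model.

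Sox5 encodes a partner of SOX9 without an activation domain of its own and lies on the minus strand of chromosome 6 (143828425 to 144781977). It was at 2.11, 1.85 and 1.81 CPM in WT lines 36, 47 and 78 and at 2.31, 2.53 and 0.467 CPM in KO lines 33, 41 and 72. KO lines 33 and 41 lay above every WT line, while KO line 72 lay below them all at 0.221 times the median of the other 5 lines. The log2 fold change of -0.12 (SE 0.58, edgeR adjusted p = 0.943) became 0.34 without KO line 72. Of its exon bases 1330 are shared with the antisense gene Sox5os1, whose reads cannot be told apart where strand is not used.

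Sox6, the close relative of Sox5, lies on the minus strand of chromosome 7 (115470872 to 116038796). It was at 1.03, 1.68 and 1.23 CPM in WT lines 36, 47 and 78, and at 3.08, 0.251 and 9.16 CPM in KO lines 33, 41 and 72. The KO lines bracketed the WT lines, with a 36.4-fold range among them against 1.62-fold among WT lines. The log2 fold change was 1.66 (SE 1.04, edgeR adjusted p = 0.516). It was 0.36 without KO line 72 and 2.21 without KO line 41, where the unadjusted p-value was 0.00563 and the adjusted one 0.199. With lane in the model it was 0.058. Sox5 and Sox6 thus went opposite ways in KO line 72, where the first was at its lowest and the second at its highest.

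Acan encodes aggrecan, the large proteoglycan that gives cartilage its resistance to compression, and lies on the plus strand of chromosome 7 (79053483 to 79115099). It was at 6.31, 23.7 and 1.96 CPM in WT lines 36, 47 and 78, and at 25.8, 9.90 and 0.259 CPM in KO lines 33, 41 and 72. The highest and the lowest line were both KO lines and differed 99.4-fold, and the WT lines alone covered a 12.1-fold range. The value in KO line 72 rests on 20 counts. Only 0.284% of all tested genes had a larger SD of log2 CPM over the 6 lines. The means of 10.7 ± 11.5 CPM in HAT1 WT and 12.0 ± 12.9 CPM in HAT1 KO gave a log2 fold change of 0.17 (SE 1.40, edgeR adjusted p = 0.967). It ran from -1.07 without KO line 33 to 1.56 without WT line 47, and was 2.61 with Y-linked class in the model.

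For Sox9, Sox5 and Acan alike, WT line 78 and KO line 72 were the lowest of the 6 lines. These 3 were singled out of the 9 after their values were seen. The same was true of 6.88% of all tested genes. Col2a1, the main collagen of cartilage, named after its values were seen, had the same lowest pair: it was at 61.5, 102.3 and 0.627 CPM in WT lines 36, 47 and 78 and at 13.5, 6.08 and 0.570 CPM in KO lines 33, 41 and 72. Not all genes of the cartilage matrix list described below shared this pair. WT line 78 was the highest line for Col11a2, and KO line 72 for Hapln1, Matn3 and Fmod. Of the 13 tested genes of that list KO line 72 was the lowest line for 8 and the highest for 3. WT line 78 and KO line 72 belong to different genotypes and lanes.

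Comp encodes cartilage oligomeric matrix protein, found in cartilage, tendon and ligament, and lies on the plus strand of chromosome 8 (70373558 to 70382066). It was at 1.72, 0.422 and 0.485 CPM in WT lines 36, 47 and 78, and at 0.528, 0.340 and 8.30 CPM in KO lines 33, 41 and 72. The high KO mean (3.05 ± 4.54 CPM against 0.877 ± 0.734 in HAT1 WT) came from KO line 72, at 17.1 times the median of the other 5 lines. With that line the log2 fold change was 1.80 (SE 1.30, edgeR adjusted p = 0.574), and without it -0.98.

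Matn4, which encodes matrilin-4, an adaptor protein that links matrix fibrils, was the 1 gene in which the genotypes did not overlap. It lies on the minus strand of chromosome 2 (164389393 to 164405160). It was at 1.94, 1.40 and 1.80 CPM in WT lines 36, 47 and 78, and 2.65, 2.54 and 3.41 CPM in KO lines 33, 41 and 72. Every KO line was above every WT line. Of all tested genes 22.0% had no overlap between the genotypes, in either direction. The means were 1.71 ± 0.276 and 2.87 ± 0.472 CPM (SD, n = 3), a log2 fold change of 0.74 (SE 0.22). In edgeR the unadjusted p was 0.0138 and the adjusted p 0.220, and an exact permutation of the lines gave p = 0.1, which is as small as 3 against 3 allows. The fold change stayed between 0.61 and 0.84 over 14 alternative settings, and was 0.61 without KO line 72. KO lines exceeded the WT line by 1.09 within lane 6 and by 0.49 within lane 7 on the log2 scale, and by 0.65 among the 4 lines with few Y-linked counts. With lane or Y-linked class in the model the unadjusted p-value was above 0.05. Adjusted p-values over the 14 settings ran from 0.0462 with the DESeq2 Wald test to 0.772. In the annotation 149 exon bases of Matn4 are shared with Rbpjl on the opposite strand, which had only 4 to 10 counts in any line, against 113 to 263 for Matn4.

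Genes of other lists also differed between the genotypes. Over all tested genes 14.6% passed unadjusted p < 0.05 (5.88% higher and 8.77% lower in HAT1 KO) and 0.528% adjusted p < 0.05 in edgeR. All 9 macrophage markers, of which Csf1r had the highest mean CPM, were lower in HAT1 KO at unadjusted p < 0.05, 7 of them at adjusted p < 0.05 in edgeR. With lane or Y-linked class in the model all 9 stayed at unadjusted p < 0.05 and 0 at adjusted p < 0.05. The adjusted count was also 0 when any 1 line but KO line 72 was left out, and 4 without that line. Their summed level was 1987 to 2123 CPM in WT lines and 1080 to 1269 CPM in KO lines. Of 12 proliferation genes 8 were higher at unadjusted p < 0.05 and 0 at adjusted p < 0.05 in edgeR (2 with DESeq2, 0 with voom). Their summed levels overlapped, at 492.9 to 741.4 CPM in WT lines and 695.2 to 1030 CPM in KO lines. Among 4 tested endothelial markers, of which Kdr was the most abundant, Pecam1 and Cdh5 were lower at unadjusted p < 0.05. Summed levels of that list overlapped, at 11.4 to 12.6 CPM in WT lines and 8.92 to 12.4 CPM in KO lines. Of 3 tested adipocyte markers 1 was lower at unadjusted p < 0.05, the most abundant one, Cebpa, with a log2 fold change of -0.998. The other 2 had fitted values higher in HAT1 KO. At adjusted p < 0.05 Cebpa did not pass in edgeR but did with DESeq2 and with voom. Summed levels of the list were 89.6 to 99.3 CPM in WT lines and 49.7 to 59.9 CPM in KO lines. Most of each sum was Cebpa, at 82.1 to 88.7 CPM in WT lines and 30.0 to 52.5 CPM in KO lines. The macrophage markers were lower in the same KO lines, and their part in the Cebpa values was not tested. Refits with lane or Y-linked class were not summarized for the proliferation, endothelial and adipocyte lists. The part of the differences in these lists in the result for Matn4 was not tested.

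Runx2, on the minus strand of chromosome 17 (44495987 to 44814797), was at 41.4, 38.3 and 35.6 CPM in WT lines 36, 47 and 78, and at 38.7, 39.8 and 66.8 CPM in KO lines 33, 41 and 72. Of these, 5 lines lay within a narrow band and KO line 72 was 1.73 times their median. The means of 38.5 ± 2.89 and 48.4 ± 15.9 CPM gave a log2 fold change of 0.33 (SE 0.22, edgeR adjusted p = 0.542). Without KO line 72 it was 0.04. The antisense gene Runx2os1 shares 519 exon bases with Runx2, so reads there may come from either.

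Sp7 lies on the minus strand of chromosome 15 (102356606 to 102367182). It was at 1.01, 0.956 and 1.16 CPM in WT lines 36, 47 and 78, and at 3.33, 0.473 and 2.46 CPM in KO lines 33, 41 and 72. KO lines 33 and 72 lay above every WT line and KO line 41 below them all. The log2 fold change was 1.01 (SE 0.64, edgeR adjusted p = 0.521). Without KO line 41 it was 1.48, with an unadjusted p-value of 0.00173 and an adjusted one of 0.126. It was 0.50 without KO line 33, 0.40 with voom and 0.31 with lane in the model.

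Alpl, on the minus strand of chromosome 4 (137741733 to 137796384), was at 0.292, 0.124 and 0.546 CPM in WT lines 36, 47 and 78, and at 0.472, 0.0296 and 0.830 CPM in KO lines 33, 41 and 72. The genotypes overlapped, and the lowest value rests on 2 counts. Its log2 fold change of 0.46 (SE 1.00, edgeR adjusted p = 0.869) became -0.31 without KO line 72. Ibsp, on the plus strand of chromosome 5 (104299171 to 104311469), had 4, 0 and 2 counts in WT lines 36, 47 and 78 and 2, 0 and 0 in KO lines 33, 41 and 72. A count of 0 allows up to 3 counts, or 0.0373 to 0.0444 CPM in these libraries, and up to 0.0745 to 0.0888 CPM if each read pair was counted as 2, so a genotype difference in Ibsp was not detectable at this depth. Alpl ranged from 2 to 64 counts a line and Ibsp from 0 to 4, against 2688 to 5150 for Runx2.

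**Figure D2:**
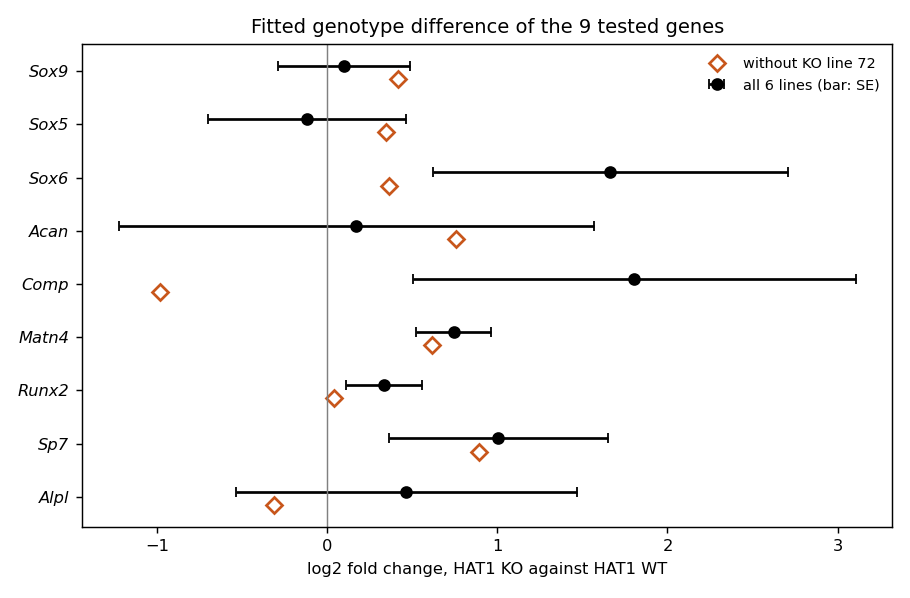
Fitted log2 fold change of HAT1 KO against HAT1 WT (x axis) for the 9 tested genes (y axis), with black points and SE bars for all 6 lines and open diamonds for the fit without KO line 72. Comp and Alpl move from above 0 to below it without that line and Sox5 from below to above, whereas Matn4 stays near its value.

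The spread between lines was wide for most of these genes. The SD of log2 CPM over the 6 lines lay in the top 10% of all tested genes for 6 of the 9: it was 2.47 for Acan, 1.74 for Comp, 1.68 for Sox6, 1.47 for Alpl, 1.00 for Sp7 and 0.88 for Sox5. The median over all tested genes was 0.20. Of the genes at a like level 0.284% exceeded Acan, 2.66% Comp, 3.34% Sox6 and 7.4% Alpl, but 16.6% exceeded Sp7 and 18.9% Sox5. The SD was 0.55 for Sox9, 0.45 for Matn4 and 0.33 for Runx2, and 6.59%, 42.3% and 14.0% of the genes at a like level exceeded them. Set against its own level, Sox9 was therefore also among the more variable genes.

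**Figure D3:**
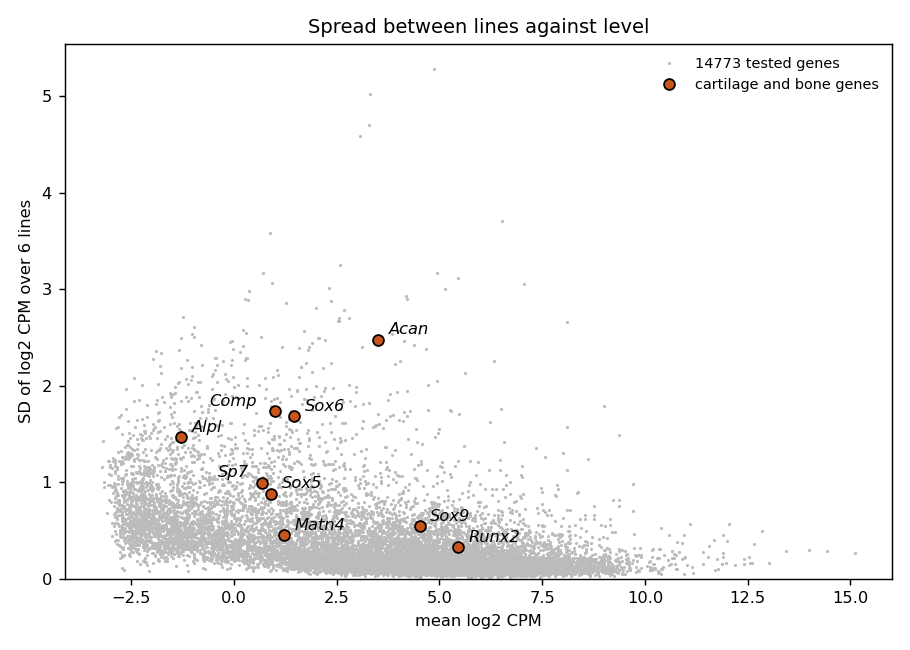
SD of log2 CPM over the 6 lines (y axis) against mean log2 CPM (x axis) for the 14773 tested genes in grey and the 9 cartilage and bone genes in orange. Acan lies near the upper edge of the cloud, and Runx2 just above its dense lower band.

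KO line 72 was the highest line for Sox6, Comp, Matn4, Runx2 and Alpl and the lowest for Sox9, Sox5 and Acan, so it was an extreme for 8 of 9 genes, against 51.5% of all tested genes. Taken singly, it was the highest line for 26.0% of tested genes and the lowest for 25.4%. KO line 41 was the lowest for Sox6, Comp, Sp7 and Alpl, and the same held for 13.5% of tested genes. The 2 KO lines were thus at opposite ends for Sox6, Comp and Alpl. Within lanes 6 and 7 the KO-WT difference had opposite signs for 7 of the 9 genes (all but Matn4 and Runx2). Among the 4 lines with few Y-linked counts KO was lower for Sox5 and Alpl alone.

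Other genes of the skeletal program were taken as 6 lists covering cartilage matrix, chondrocyte regulators and hypertrophy, osteoblast regulators, bone matrix and mineralization, tendon and joint, and mesenchymal progenitors. They named 80 genes, of which 66 were tested. The background for each list below is 14.6% of all tested genes at unadjusted p < 0.05 (5.88% higher and 8.77% lower in HAT1 KO). The median log2 fold change of all tested genes was 0.0085. At unadjusted p < 0.05 there were 5 higher and 5 lower in HAT1 KO, together 15.2% against the background of 14.6%, and 0 at adjusted p < 0.05 in edgeR (Mef2c and Tnc with DESeq2, Mef2c with voom). KO line 72 was the highest line for 27 of the 66 and the lowest for 25. Leaving out WT line 47 gave 5 of 67 genes at unadjusted p < 0.05, or 7.46% against 11.1% of all genes in that fit. Leaving out KO line 33 or KO line 41 gave 18 of 68 each, or 26.5% against 12.4% and 13.7% of all genes. With lane in the model it was 8 of 66, or 12.1% against 6.3%. Alternatives that gave a gene no adjusted p-value were not counted for it. Col11a2, Dlx5, Mef2c and Tnc were at unadjusted p < 0.05 in every alternative counted. The others were not: Pthlh was in 11 of 12, Mkx in 10 of 14, Fmod in 8 of 14, Thy1 in 7 of 14, Msx1 in 5 of 13 and Matn3 in 4 of 12.

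Among 13 tested cartilage matrix genes, 2 were higher and 1 lower at unadjusted p < 0.05, with a median log2 fold change of 0.21. Matn3, a relative of Matn4, was at 0.133, 0.174 and 0.141 CPM in WT lines 36, 47 and 78 and at 0.371, 0.177 and 0.544 CPM in KO lines 33, 41 and 72, a log2 fold change of 1.28 (unadjusted p = 0.0355). No KO line reached down to the WT range in CPM, though KO line 41 lay just above it. That value rests on 12 counts, against 10, 14 and 14 in WT lines 36, 47 and 78. Fmod, which encodes the collagen-binding fibromodulin and was the most abundant of the list per kilobase, was higher by 0.54 (unadjusted p = 0.0420), with overlapping lines. Col11a2, a minor cartilage collagen, was at 0.941, 1.06 and 1.18 CPM in WT lines and at 0.427, 0.636 and 0.259 CPM in KO lines, a log2 fold change of -1.27 (unadjusted p = 0.0136). All KO lines lay below the WT lines. Cnmd and Snorc were under 10 counts in every line.

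Of 12 tested chondrocyte regulators and hypertrophy genes, 2 were lower and 0 higher at unadjusted p < 0.05, with a median log2 fold change of -0.10. Mef2c, a transcription factor of cartilage hypertrophy and of muscle and myeloid cells, was at 52.1, 51.4 and 53.6 CPM in WT lines 36, 47 and 78 and at 36.2, 36.2 and 26.2 CPM in KO lines 33, 41 and 72. The groups did not overlap, and the log2 fold change was -0.67 (unadjusted p = 0.00207, edgeR adjusted p = 0.109). Without KO line 72 it was -0.52, with an adjusted p-value of 0.0487. The macrophage markers given above were lower in the same lines, and their part in this value was not tested. Pthlh, which encodes the signal that delays hypertrophy, was at 0.133, 0.199 and 0.243 CPM in WT lines and at 0.0674, 0.0296 and 0.0778 CPM in KO lines, a log2 fold change of -1.68 (unadjusted p = 0.0148). Cbfb, the partner subunit of the RUNX proteins and the most abundant of the list per kilobase, was at 113.3, 118.0 and 113.6 CPM in WT lines and at 118.4, 114.0 and 98.5 CPM in KO lines, so it overlapped.

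Of 12 tested osteoblast regulators, 2 were higher at unadjusted p < 0.05 and 0 lower, with a median log2 fold change of 0.12. Dlx5, a homeobox factor upstream of Sp7, was at 0.106, 0.149 and 0.121 CPM in WT lines 36, 47 and 78 and at 0.505, 0.296 and 0.778 CPM in KO lines 33, 41 and 72. Every KO line lay above every WT line, and the log2 fold change was 2.06 (SE 0.45, unadjusted p = 0.00352, edgeR adjusted p = 0.133). Msx1, a homeobox factor of early skeletal and limb progenitors, was at 1.83, 2.88 and 1.48 CPM in WT lines and at 1.75, 2.22 and 88.1 CPM in KO lines. Its log2 fold change of 3.90 (unadjusted p = 0.0489) rested on KO line 72 and was -0.04 without it. Atf4 was the most abundant of the list per kilobase.

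Of 13 tested bone matrix and mineralization genes 0 passed unadjusted p < 0.05 in the edgeR test, with a median log2 fold change of 0.06. DESeq2 gave 0 at that threshold and voom gave 1, Ank, a transporter of the mineralization inhibitor pyrophosphate. Sparc, which encodes the collagen-binding osteonectin, was the most abundant per kilobase, at 4236 to 5293 CPM in WT lines and 4241 to 5231 CPM in KO lines. Spp1 (osteopontin), named after its values were seen, was at 1107, 832.4 and 542.6 CPM in WT lines 36, 47 and 78 and at 320.8, 353.2 and 1849 CPM in KO lines 33, 41 and 72. The KO lines again lay on both sides of the WT lines.

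Of 8 tendon and joint genes 1 was higher and 1 lower at unadjusted p < 0.05. Mkx, a tendon transcription factor, was at 1.90, 1.12 and 1.71 CPM in WT lines and at 1.99, 3.49 and 4.33 CPM in KO lines, a log2 fold change of 1.05 (unadjusted p = 0.0236) with no overlap. Tnc, which encodes tenascin-C and was the most abundant of the list per kilobase, was at 5154, 5299 and 5858 CPM in WT lines and at 2995, 4023 and 2102 CPM in KO lines. Its log2 fold change was -0.84 (unadjusted p = 0.0110), and the groups did not overlap. Of 8 mesenchymal progenitor genes 1 was lower and 0 higher, namely Thy1, with a log2 fold change of -0.31 (unadjusted p = 0.0350). It was also the most abundant of its list per kilobase.

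Beyond Msx1, several genes of the lists were high in KO line 72 alone, and the following were named after their values were seen. Msx2, a relative of Msx1, was at 39.1 CPM there and at 0.921 to 2.36 CPM in the other 5 lines. Prg4, which encodes the joint lubricant lubricin, was at 80.0 CPM against 0.988 to 3.37 CPM. Hapln1, which encodes the link protein that binds aggrecan to hyaluronan, was at 3.54 CPM against 0.148 to 0.382 CPM. Fgfr3, a growth factor receptor of cartilage, was at 9.13 CPM against 1.68 to 2.02 CPM. In the same line Acan and Col2a1 were at their lowest. Of the 13 tested cartilage matrix genes KO line 72 was the highest line for 3 and the lowest for 8. Col10a1, the collagen of hypertrophic cartilage, was at 39.5 CPM in KO line 72 and at 36.1, 24.4 and 11.8 CPM in WT lines 36, 47 and 78, but at 2.63 and 3.08 CPM in KO lines 33 and 41.

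**Figure D4:**
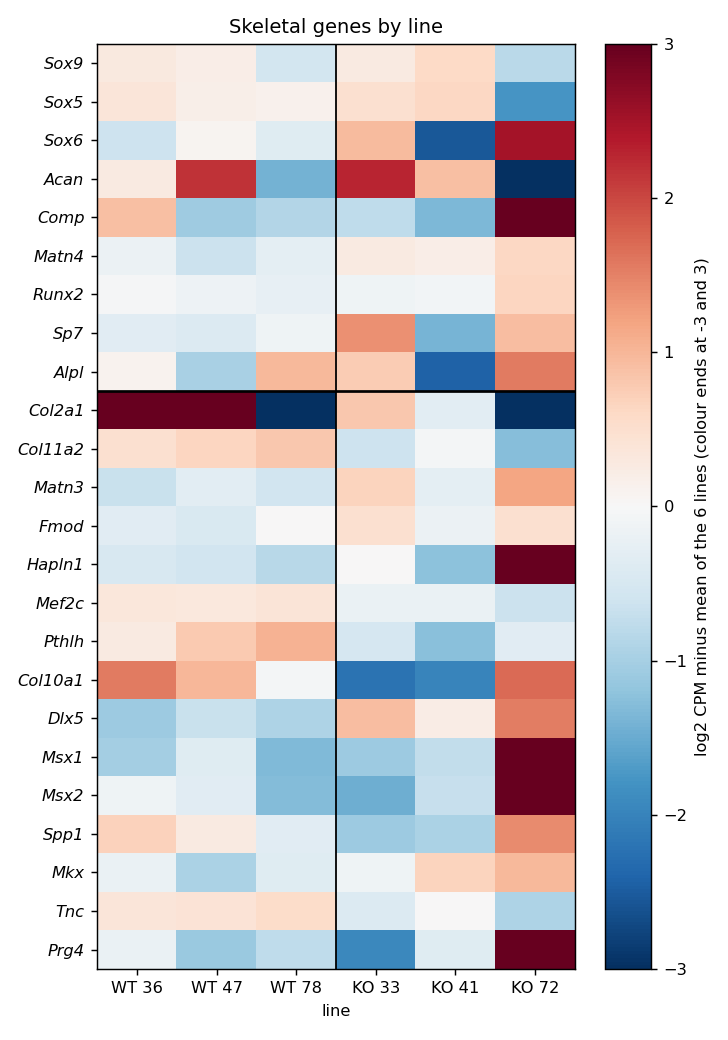
Level of 24 skeletal genes (rows) in each line (columns) as log2 CPM minus the mean of the 6 lines, red above and blue below that mean, with colours ending at -3 and 3. The 9 tested cartilage and bone genes stand above the black line, and KO line 72 is deep red for Sox6 and Comp and deep blue for Acan.

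Markers of other cell types that such cultures could hold were read beside these genes. Of 6 tested osteoclast markers 0 passed unadjusted p < 0.05 in the edgeR test, with Ctsk the most abundant and summed levels of 157.9 to 275.2 CPM in WT lines and 147.4 to 226.9 CPM in KO lines. DESeq2 and voom gave 0 as well. Of 2 tested skeletal muscle markers 0 passed with any of the 3 tools. The most abundant was Acta1, highest in KO line 72 at 74.6 CPM, while Myod1, Myog, Myf5 and Pax7 were not analysed here. Of 5 neural crest and glia genes 0 passed with any tool, and their summed level was 0.454 CPM in KO line 72 and 19.4 CPM in KO line 33, where Sox10 was at 7.52 CPM. Of 2 tested epithelial markers 0 passed in edgeR and 2 in DESeq2 and in voom, 1 higher and 1 lower in HAT1 KO. Cdh1, with the higher mean CPM over the 6 lines, was at 0.371 to 2.05 CPM, with an edgeR log2 fold change of 1.27. Krt18 was at 0 to 1.33 CPM, with an edgeR log2 fold change of -2.16. The part of these in the levels of the cartilage and bone genes was not tested.

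The genes whose profiles over the 6 lines were most like those of the lineage regulators were found by root mean square distance of centred log2 CPM. For Sox9, among 3777 genes that varied at least 0.8 times as much, they were Nrg1 at 0.0832, Fabp5 at 0.121 and Tdg at 0.14 on the log2 scale. All were lowest in KO line 72 and next lowest in WT line 78, as Sox9 was. For Runx2, among 6056 genes, they were Nyap1 at 0.0345, Rgl1 at 0.0457 and H2afj at 0.0515, all highest in KO line 72. These distances describe 6 libraries and carry no test.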

How the data were processed

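RNA-seq was analysed for 3 HAT1 WT and 3 HAT1 KO lines of pMEFs, grouped by the genotype in the sample labels. The authors deposited 1 table of raw counts per gene, not normalized, with columns of their own comparison (log2 fold change, log2 mean CPM, F score, p-value and q-value). Those authors' columns were not used. Every sample column had a sample, with 0 unmapped. The submitters' processing notes name edgeR and the build mm10. Aligner, counter and use of strand were not given in the sources used here. Of counts from 1 to 10, 75.1% were even, against 55.0% of those from 101 to 1000, so the counting unit (read or pair) is uncertain.

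Counts were tested with edgeR 4.0.16 (R 4.3.3): filterByExpr with its defaults (minimum count 10, minimum total 15), TMM scaling, and glmQLFit and glmQLFTest with genotype alone, two-sided, adjusted over 14773 genes by Benjamini-Hochberg with a threshold of 0.05. The SE of a log2 fold change is approximate and was taken as the fold change over the square root of F. DESeq2 1.42.0 and voom from limma 3.58.1 were alternatives, as were other scalings and filters, lane or Y-linked class in the model, and leaving out each line. The test was tested on simulated data. The p-values measure the spread between lines, and the labels do not say whether each line is a separate embryo. Counting limits cover counting error only. The depth, 67720628 counts or more per line, leaves the spread between lines as the main error except at the lowest counts.

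All 17512 identifiers matched GENCODE M21 (GRCm38), from which positions, exon lengths and overlaps were taken. Promoter windows came from RefSeq (GRCm38.p6). The 10 genes and the lists were chosen with earlier results of these data known. Named genes were these 10, Hat1, genes of the wider lists with an unadjusted p-value under 0.05, the gene of highest CPM per kilobase in each wider list or highest mean CPM in each marker list, genes of a list under 10 counts in every line, marker genes with an unadjusted p-value under 0.05, and the 3 profiles nearest to Sox9 and Runx2. Col2a1, Spp1, Msx2, Prg4, Hapln1, Fgfr3, Col10a1, Ank and Krt18 were named outside this rule, after their values were seen.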

Additional observations from a re-analysis of the deposited data

How the results depend on the processing

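Over the alternatives, the 9 tested genes kept their direction and their side of the adjusted threshold in 108 of 124 refits. Sign changed in 15, in genes that did not pass the threshold in any setting, and the cause was not tested. With voom and sample quality weights the log2 fold change was 0.011 for Sox5, -0.19 for Sox6, -0.016 for Acan, -0.28 for Comp and -0.54 for Alpl. Alpl was at -0.30 with lane and at -0.29 with Y-linked class in the model. Lane also took Sox6 to 0.058 and Sp7 to 0.31, and Y-linked class took Acan to 2.61, Comp to 2.65 and Sox9 to 0.68. Leaving out 1 line at a time gave -0.19 to 0.42 for Sox9, -0.45 to 0.34 for Sox5, -1.07 to 1.56 for Acan, -0.98 to 2.75 for Comp, -0.31 to 1.10 for Alpl and -0.044 to 4.46 for Msx1. Alpl was not tested at a mean of at least 50 counts, and Comp had no adjusted p-value from DESeq2.

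The count of the 9 genes past an adjusted p-value of 0.05 was 0, and 1 (Matn4) with the DESeq2 Wald test. At an unadjusted p-value under 0.05 it was 1, 0 with lane and 0 with Y-linked class in the model, and 1 to 3 without 1 line (3 without KO line 41, with Sox6 and Sp7 added). The wider lists gave 10, 6 at a mean of at least 50 counts, and 5 to 18 without 1 line. Over all genes the adjusted count of 78 became 871 with DESeq2, 267 with voom, 46 with no filter, 2 with lane, 0 with Y-linked class and 0 to 73 without 1 line (0 without WT line 36, WT line 47 or KO line 33), and the unadjusted count of 2164 became 931 with lane and 1439 to 2786 without 1 line. Hat1 kept its direction in all 14 settings but lost its adjusted threshold in 8 of them. No paired analysis was possible because the genotypes share no line numbers. With 3 lines a group, 1 line can change these values. Depth limits mainly Alpl and Ibsp among the 10 genes, and also Pthlh, Matn3 and Dlx5 in the wider lists.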
